A study of Mus musculus with 2 samples.

Results

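The 9 transcripts of Hedgehog signalling described here encode the ligand receptor Ptch1, the signal transducer Smo, the co-receptors Gas1, Boc and Cdon, the ligand-binding inhibitor Hhip and the transcription factors Gli1, Gli2 and Gli3. They were chosen by name as parts of 1 pathway, and all 9 were found by their RefSeq identifier among the 16881 transcripts of the deposited table. Total RNA was sequenced from immortalized C57BL/6 MEFs (fibroblasts grown from mouse embryos) in 2 cultures, one p65+/+, called wild-type here, and the other p65-/-, called null. p65 is the product of Rela and a subunit of the transcription factor NF-kB, and the comparison asks which genes differ with its presence or absence. The labels name no stimulus and no embryo, clone or passage for either culture, and each genotype had 1 library. No difference therefore has a replicate check, no p-value is given, and genotype cannot be told apart from any other difference between these cultures.

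Hedgehog ligands are secreted proteins that pattern the limb, neural tube, gut and skeleton, and mesenchymal cells such as fibroblasts are among the cells that receive them. Without ligand, Ptch1 holds Smo inactive, and Gli2 and Gli3 are cut or degraded so that repressor forms, chiefly of Gli3, keep target genes off. Binding of a ligand to Ptch1 together with Gas1, Boc or Cdon releases Smo into the primary cilium, and full-length Gli proteins then switch on targets. Gli1, Ptch1 and Hhip are themselves such targets, and their RNA is the usual readout of pathway activity.

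Depth was 20794476 fragments (wild-type) and 15441394 (null), recovered from the scaled values of the table. Levels are given as normalised CPM (counts per megafragment after library scaling) and, between genes, as normalised FPKM (the same per kilobase of transcript). Ratios are null over wild-type with exact 95% Clopper-Pearson intervals, which cover counting error in these 2 libraries only. Rela itself stood at 90.5 (wild-type) and 13.1 (null) normalised CPM, and the labels do not say which part of the gene the null allele lacks. The libraries also differed in sex-linked RNA: Xist had 956 wild-type and 2 null fragments, and the Y-linked Kdm5d had 0 and 207, so genotype and the sex of the source cannot be told apart. All 12 fibroblast markers looked up were measured, and they differed in both directions. In the null library 6 were higher by 2-fold or more, among them S100a4 (2565 and 22844 fragments), and Thy1 was lower (1757.5 and 146). Among all genes with a mean of at least 1 normalised CPM, 12.2% were higher and 13.7% lower by that much. Of the 6, Lum (5 and 83 fragments) reached that minimum only through the null library, so the count is a description only. The 7 epithelial markers, 4 of them at 0 in the wild-type library, summed to 16.9 (wild-type) and 51.4 (null) normalised CPM, nearly all of it Krt19. The endothelial markers summed to 3.40 and 2.24, with Cdh5 at 1 and 0 fragments. The leukocyte markers summed to 20.6 and 9.57, with Cd14 at 361 and 66.5 fragments but Cd68 at 29 and 61.5. Ptprc had 2 and 0. The skeletal muscle markers summed to 0.377 and 1.58, with Des at 4 and 16.5 fragments but Myod1 at 2 and 0. The neural markers summed to 409 and 93.8, with Nes at 6822 and 733 fragments but Sox2 at 2 and 143.5. The chondrocyte markers summed to 67.8 and 147, with Col2a1 at 659 and 1951.5 fragments but Acan at 299 and 5. The part of these differences in the results below was not tested.

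Of the 9 members, 4 were higher by 2-fold or more in the null library (Gas1, Gli1, Boc and Gli2), 1 was lower by 2-fold or more (Hhip), and 4 lay within 2-fold (Ptch1, Smo, Cdon and Gli3). Among the 12135 genes with a mean of at least 1 normalised CPM, taken as measured, 12.2% were higher and 13.7% lower by that much. Of the genes past 2-fold, 46.9% were higher in the null library, and 23.0% under scaling to ribosomal protein genes, which moved every log2 ratio by -0.40. List medians below of 0.30 and 0.12 therefore lay under 0 with that scaling. The entire counting interval lay beyond 2-fold for 5 of the 9 members, the same 5 that were 2-fold apart. Over all measured genes, in either direction, this held for 17.0%. All 9 members passed the minimum, but Gli1 did so only through the null library and Hhip only through the wild-type library. Each of these had to differ in order to be counted, so the counts are a description only. After a correction for GC content and length the members' counts were again 4 and 1, beside 11.1% of the genes that could be corrected higher and 9.18% lower. The median log2 ratio of the members was 0.30, against -0.03 over all measured genes, and it was -0.11 with ribosomal protein genes as the basis of the scaling. Fewer cells that express a gene and less of its RNA per cell cannot be told apart in RNA from whole cultures.

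**Figure D1:**
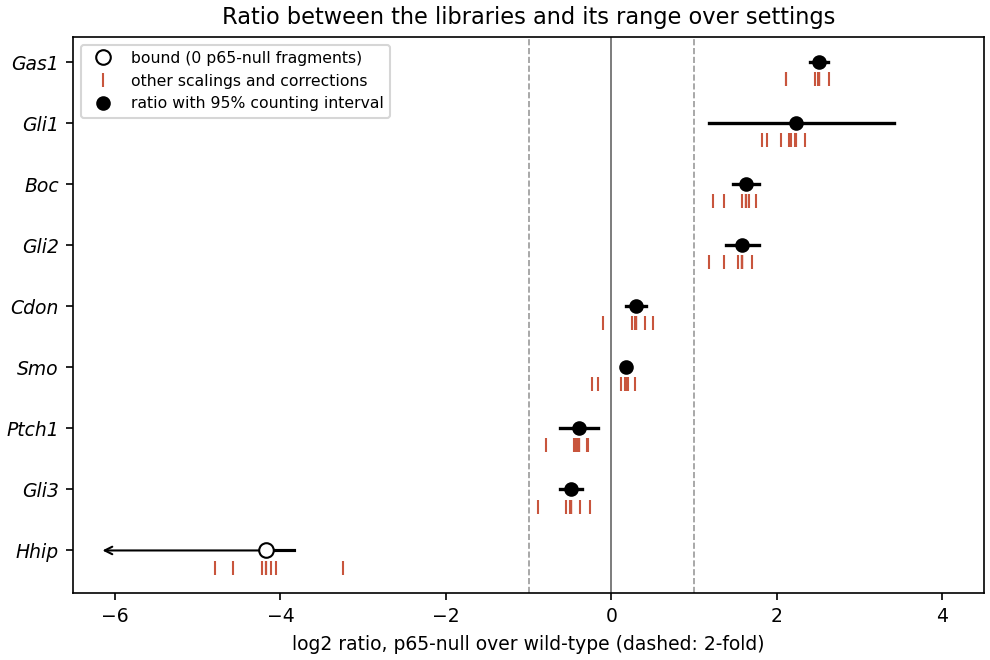
Log2 ratio of each member, null over wild-type, with its 95% counting interval as a bar and, beneath it, the values under the other scalings and corrections as ticks. Gas1 (2.51), Gli1 (2.23), Boc (1.63) and Gli2 (1.58) lay right of the dashed 2-fold line under every setting drawn, and Hhip (open circle, a bound with an arrow) lay left of it.

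The co-receptors bind Hedgehog ligands and present them to Ptch1. Gas1, a glycolipid-anchored protein first known as a growth arrest gene, had 881.5 wild-type and 3596 null fragments, or 41.6 and 237 normalised CPM. It was 5.71-fold higher in the null library (5.30 to 6.15), a log2 ratio of 2.51, and 364 of the 12135 measured genes had a larger ratio. Gas1 (NM_008086) lies on chromosome 13, 60174405 to 60177535 of GRCm38, the assembly also called mm10. This was the largest ratio towards the null library among the 9 members.

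Boc, an immunoglobulin-type membrane protein, had 486.5 wild-type and 1076 null fragments (NM_172506, chromosome 16, 44485045 to 44558870). Its level was 23.0 and 71.0 normalised CPM, 3.09-fold higher in the null library (2.78 to 3.45). Cdon, the protein most closely related to Boc, had 1269.5 and 1116 fragments (NM_021339, chromosome 9, 35421528 to 35507652). Its level was 59.9 and 73.7 normalised CPM, a log2 ratio of 0.30 (0.18 to 0.42), which turned to -0.11 under scaling to ribosomal protein genes. Of the 3 co-receptors, Gas1 and Boc were past 2-fold and Cdon was not. After the correction for GC and length, Gas1 stood at a log2 ratio of 2.11, Boc at 1.36 and Cdon at 0.50.

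The change of a ratio of 1 member to another does not depend on library scaling or on the division by transcript length. The correction for GC and length can still move it. The Gas1 to Cdon ratio was 4.64 times as large in the null as in the wild-type library (4.15 to 5.18), and the Boc to Cdon ratio 2.52 times as large (2.20 to 2.89). After the GC and length correction these were 3.05 and 1.82. Per length, the co-receptors summed to 27.2 (wild-type) and 106 (null) normalised FPKM. Gas1 made up 51.7% of the wild-type sum and 75.7% of the null sum, Cdon 29.4% and 9.27%, and Boc 19.0% and 15.1%. Gas1 was the main co-receptor transcript in each library.

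Ptch1, the receptor that ligands inactivate, had 432 wild-type and 235.5 null fragments (NM_008957, chromosome 13, 63508328 to 63573460). Its level was 20.4 and 15.5 normalised CPM, a log2 ratio of -0.39 (-0.63 to -0.16). The interval lay below 0 but within 2-fold, and 4001 measured genes had a smaller ratio. Smo, the seven-pass membrane protein that carries the signal inward, had 7297.5 and 5885 fragments (NM_176996, chromosome 6, 29735497 to 29761366). It was the most abundant member in both libraries, at 344 and 389 normalised CPM, with a log2 ratio of 0.17 (0.12 to 0.22) that turned to -0.23 under scaling to ribosomal protein genes and to -0.16 after the GC and length correction. Smo thus had no direction that held under all settings. The Ptch1 to Smo ratio was 1.48 times as large in the wild-type as in the null library (1.25 to 1.74). After the GC and length correction the null to wild-type change of that ratio was 0.915, against 0.676 before it. The ratio of Gas1 to Ptch1, the receptor it serves, was 7.48 times as large in the null library (6.24 to 8.93). Once corrected for GC and length it was 5.29 times as large.

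Hhip, a membrane-anchored protein that binds and sequesters Hedgehog ligands, was the member with the largest difference. It had 75.5 wild-type fragments, 3.56 normalised CPM, and 0 null fragments, a count that allows a level of up to 0.198 (3 fragments). With the null count set to 3 fragments, it was 18.0-fold lower in the null library. The smallest difference within its 95% counting interval was 14.3-fold, and 111 measured genes had a smaller ratio. After the GC and length correction the log2 bound was -3.24, against -4.17 before it. Hhip (NM_020259) lies on chromosome 8, 79965850 to 80058060. At 0.393 normalised FPKM it was already among the low members in the wild-type library. Together, the ligand-binding inhibitors Ptch1 and Hhip summed to 3.03 (wild-type) and 2.01 (null) normalised FPKM.

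**Figure D2:**
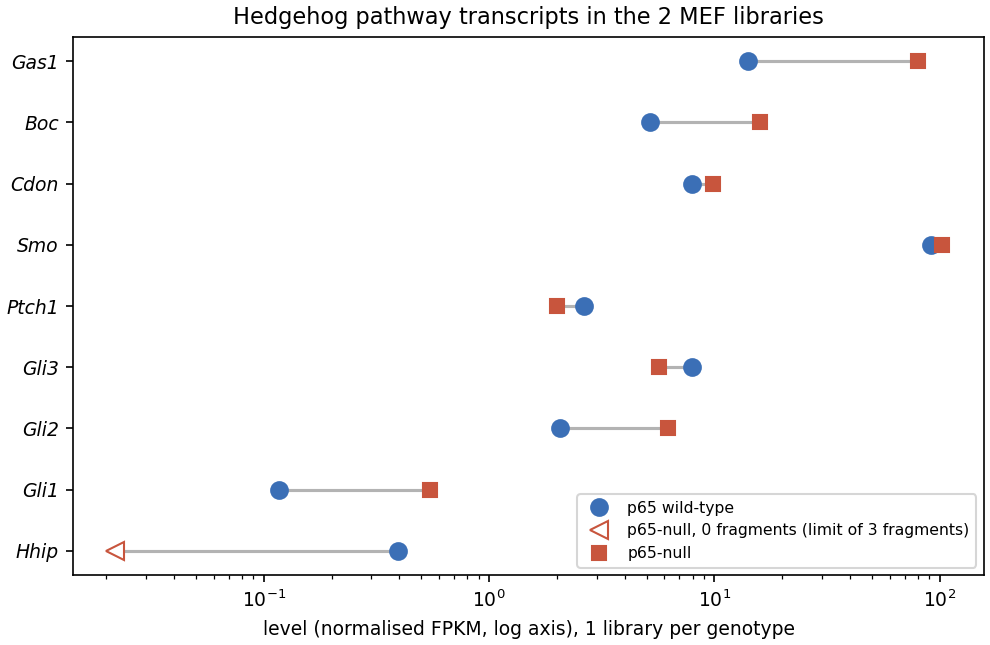
Level of each member in normalised FPKM on a log axis, with 1 point for each library. Gas1 stood at 14.0 in the wild-type (circle) and 80.2 in the null library (square), Smo was the highest in both (91.1 and 103), and the open triangle marks the limit that 0 fragments of Hhip allow.

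The Gli proteins are the zinc finger transcription factors at the end of the pathway. Gli2, the main activator, had 291 wild-type and 623.5 null fragments (NM_001081125, chromosome 1, 118834061 to 119054405). Its level was 13.7 and 41.2 normalised CPM, 3.0-fold higher in the null library (2.60 to 3.46). Gli3, the main source of repressor, had 1383.5 and 705.5 fragments (NM_008130, chromosome 13, 15463723 to 15730026). Its level was 65.3 and 46.6 normalised CPM, a log2 ratio of -0.49 (-0.62 to -0.35), and -0.25 after the GC and length correction. Gli2 and Gli3 thus lay on opposite sides of 0 under every setting tried.

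The Gli2 to Gli3 ratio was 4.20 times as large in the null as in the wild-type library (3.55 to 4.98), and 3.07 times once corrected for GC and length. Gli3 made up 78.5% of the summed Gli level per length in the wild-type and 45.8% in the null library, and Gli2 made up 20.3% and 49.8%. The sum itself was 10.2 and 12.4 normalised FPKM. RNA levels do not show how much of either protein was cut to its repressor form.

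Gli1, an activator whose own transcription depends on the pathway, was scarce in both libraries. It had 10 wild-type and 33.5 null fragments (NM_010296, chromosome 10, 127329882 to 127341579), or 0.472 and 2.21 normalised CPM. The ratio was 4.69-fold towards the null library with a wide interval (2.26 to 10.7), and the corrected log2 ratio was 1.88. Even there Gli1 stayed at 0.545 normalised FPKM, and 92.6% of measured genes were higher. The ratios of Gli1 and Gli2 were not apart beyond counting error, the Gli1 to Gli2 ratio being 1.56 times as large in the null library (0.753 to 3.65).

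Of the 3 members best known as target genes, Gli1 was higher in the null library, Ptch1 was within 2-fold and below 0, and Hhip was not detected there. Gli1 and Hhip were near the expression minimum, each above it in 1 library only.

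**Figure D3:**
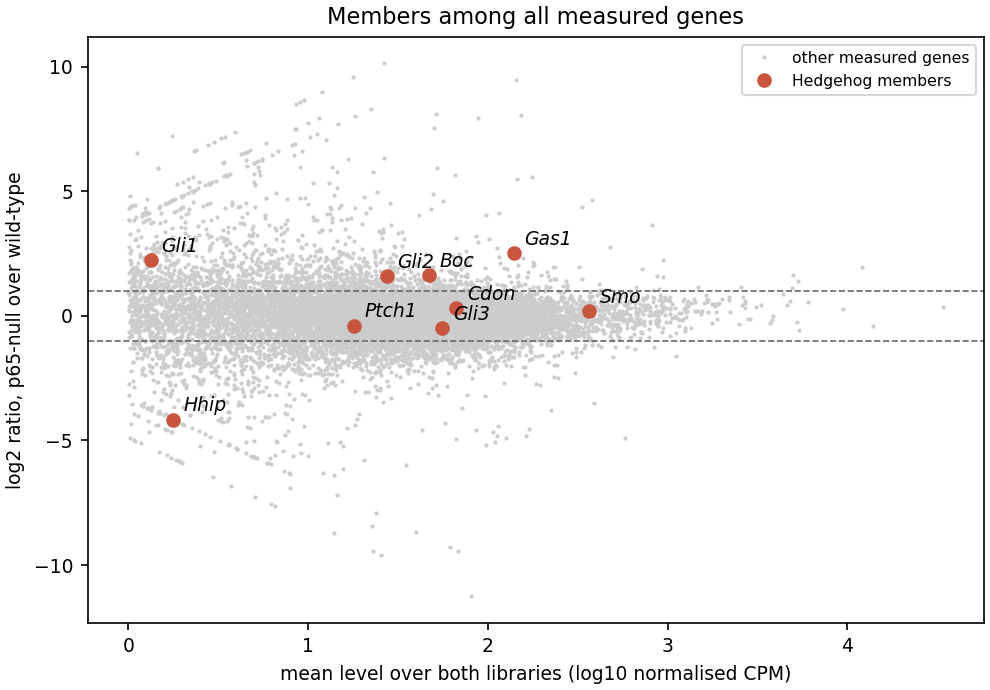
Log2 ratio of all measured genes against their mean level, grey, with the 9 members in colour and the 2-fold lines dashed. Gas1 (2.51), Boc, Gli2 and Gli1 lay above the upper line, Smo (0.17) lay near 0 at high abundance, and Gli1 and Hhip lay at the left, among the least abundant measured genes.

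Ranked per length, the wild-type library held Smo first at 91.1 normalised FPKM, then Gas1 (14.0), Gli3 (7.99), Cdon (7.98), Boc (5.16), Ptch1 (2.64), Gli2 (2.07), Hhip (0.393) and Gli1 (0.116). Gli3 and Cdon did not differ beyond counting error there, at a ratio of 1.0 (0.927 to 1.08). In the null library the order was Smo (103), Gas1 (80.2), Boc (16.0), Cdon (9.82), Gli2 (6.20), Gli3 (5.70), Ptch1 (2.01), Gli1 (0.545) and Hhip at 0. Gli2 and Gli3 did not differ beyond counting error there (1.09, 0.975 to 1.21). The other neighbours in both orders had intervals clear of 1.

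To show the sequence in front of 3 members that stood past 2-fold, the 250 bases before the annotated start of Gas1, Gli2 and Hhip are printed 5′ to 3′ on the strand of the gene, from the RefSeq table for GRCm38.p6. Capitals mark CCACCC or its reverse complement GGGTGG, the 6-base core of the Gli consensus site.
Gas1, minus strand, chr13:60177536-60177785: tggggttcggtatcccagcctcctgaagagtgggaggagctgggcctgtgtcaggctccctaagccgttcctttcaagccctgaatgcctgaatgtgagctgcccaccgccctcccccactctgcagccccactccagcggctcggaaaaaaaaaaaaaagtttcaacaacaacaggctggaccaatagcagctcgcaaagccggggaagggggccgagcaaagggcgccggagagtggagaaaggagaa
Gli2, minus strand, chr1:119053620-119053869: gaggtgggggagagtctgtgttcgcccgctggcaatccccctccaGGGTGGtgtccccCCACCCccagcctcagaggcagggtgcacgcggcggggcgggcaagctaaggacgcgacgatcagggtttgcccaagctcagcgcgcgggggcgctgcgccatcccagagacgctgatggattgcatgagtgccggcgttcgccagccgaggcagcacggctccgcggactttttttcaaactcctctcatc
Hhip, minus strand, chr8:80058009-80058258: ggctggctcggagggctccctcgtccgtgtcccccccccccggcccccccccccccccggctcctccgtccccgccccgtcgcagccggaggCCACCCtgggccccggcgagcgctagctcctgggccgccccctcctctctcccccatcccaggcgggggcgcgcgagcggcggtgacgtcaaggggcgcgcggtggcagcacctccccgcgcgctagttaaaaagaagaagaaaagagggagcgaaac
In the gene table Gas1, Gli3 and Smo start where their promoter window ends, while the windows of Gli2, Hhip, Ptch1 and Cdon belong to a start inside the gene's span. The promoter table held 7 of the 9 members, all but Gli1 and Boc. The full Gli consensus GACCACCCA, searched on both strands of the window from 250 bases before to 50 after the start, was found in none of the 7, and in 0.253% of all 32851 promoters. The kappaB consensus, the site that p65 binds, was also found in none of the 7 and in 4.51% of all promoters. The core CCACCC, chosen after those searches, was present in 31.5% of all promoters. It was found at -205 and -192 from the Gli2 start, at -170 in Gli3, at -158 in Hhip and at -162 in Smo, and not in Gas1, Ptch1 or Cdon. The windows were rich in C and G for Ptch1 (78.4%), Hhip (76.0%), Gli3 (72.8%), Smo (68.4%), Gli2 (67.2%) and Gas1 (58.8%), against a median of 52.4% over all promoters, whereas Cdon had 42.8%.

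The nearest measured genes on each chromosome were read as the members' surroundings, with before and after meaning lower and higher coordinates. Around Hhip, the nearest measured genes were Anapc10, 189 kb before it with a log2 ratio of 0.21, and Smarca5, 642 kb after it at -1.40. Beyond them, Abce1 was at -1.56 and Gab1 at 1.05. In the null library Anapc10 had 199.5 fragments and Smarca5 had 1429. The cause of the 0 count of Hhip was not tested. Around Gas1, the nearest measured genes were Tut7 at -0.46 (-0.62 to -0.30) and Dapk1 at -0.35 (-0.87 to 0.16). Tut7 lay on the other side of 0 from Gas1, while the counting interval of Dapk1 included 0. The nearest measured gene after Gli2 was Inhbb, which encodes an activin subunit, 361 kb away, with 11 wild-type and 430 null fragments and a log2 ratio of 5.77 (4.92 to 6.79). The nearest measured gene after Gli3 was its relative Inhba, 274 kb away, with 658 and 142 fragments and a log2 ratio of -1.73 (-2.0 to -1.46). Each activin subunit gene lay on the same side of 0 as the Gli gene next to it. Inhbb, however, passed the expression minimum only through the null library, so it had to be higher there to be counted. A link between these neighbours was not tested. Before Gli2 the nearest measured gene was Clasp1, 225 kb away at -0.14, on the other side of 0 from Gli2. Before Gli3 it was AW209491, 826 kb away at -0.47, on the same side as Gli3. The nearest genes before and after Boc were Spice1 at 1.09 and Nepro at -1.15, those of Ptch1 were Fancc at -0.50 and Ercc6l2 at -1.24, and those of Smo were Tnpo3 at -0.72 and Ahcyl2 at -0.83. Those of Cdon were Rpusd4 at -0.02 and Pus3 at -0.94, and those of Gli1 were Mars1 at 0.38 and R3hdm2 at -0.26. The end of Gli1 overlaps Arhgap9 on the opposite strand, which had 0 and 1 fragments. These neighbours were named after their values were seen.

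Of the ligand genes, Ihh had 3 wild-type and 0 null fragments, and Dhh had 1 and 2. Shh was not analysed here. Of the genes for ligand maturation and release, 3 were measured. Hhat, which adds palmitate to the ligand, and Disp1, which exports it, lay within 2-fold at log2 ratios of 0.48 and 0.45. Scube3, a secreted protein of the family that carries ligand away from the cell, was 4.42-fold higher in the null library (3.76 to 5.22), at 9.29 and 41.1 normalised CPM.

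Of the other membrane regulators, 3 of 12 measured genes were lower by 2-fold or more, beside 13.7% of all measured genes. Their median log2 ratio was 0.12. Lrp2, the large endocytic receptor megalin, was 23.8-fold lower in the null library (18.1 to 32.0), at 82.5 and 3.47 normalised CPM. Efcab7, which tethers the Evc complex in the cilium, was 4.66-fold lower (2.76 to 8.36), a log2 ratio of -2.22 that was -1.52 once corrected for GC and length. Mosmo, which lowers the amount of Smo at the cell surface, had a log2 ratio of -1.08 (-1.44 to -0.73), and was within 2-fold, at -0.22, once corrected for GC and length.

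Of the genes that relay the signal on the Gli proteins, 17 of 19 lay within 2-fold, with a median log2 ratio of -0.09. Most measured genes also lay within 2-fold, since 25.9% of all of them were 2-fold apart in either direction. Sufu, which holds Gli proteins in the cytoplasm, was at 0.70 (0.53 to 0.87), the ciliary kinesin Kif7 at 0.64 (0.42 to 0.87) and Spop, an adaptor for Gli degradation, at -0.12 (-0.25 to 0.01). Stk36, the homologue of the fly kinase fused, was 2.66-fold higher in the null library (1.91 to 3.75), and the kinase gene Dyrk2 was 3.06-fold lower (2.60 to 3.62).

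All 41 genes of primary cilium transport looked up were measured, and 34 of them lay within 2-fold, with 5 higher, 2 lower and a median log2 ratio of 0.30. The BBSome subunit gene Bbs1 was 5.44-fold higher in the null library (4.01 to 7.49) and the dynein-2 light intermediate chain gene Dync2li1 3.20-fold higher (2.63 to 3.92). Ift122 was at a log2 ratio of 1.18, and at 0.99 once corrected for GC and length. The lower genes, Cep290 and Ift74, were at -1.75 and -1.03, and at -0.53 and -0.40 after that correction. The share of cilium genes higher by 2-fold or more was 12.2%, equal to that of all measured genes, and the share lower was 4.88%.

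Further genes described as Hedgehog targets in mesenchyme lay on both sides. Of 35 looked up, 26 were measured, 6 of them 2-fold or more higher and 6 as far lower, and their median log2 ratio was -0.38. These shares, 23.1% each, stand beside 12.2% and 13.7% of all measured genes, but Osr2, Hand2 and Foxl1 passed the minimum only through the null library, so the count of higher genes is a description only. The lower ones included Spp1, which encodes osteopontin, at 11.4-fold (10.7 to 12.2), Bcl2, the survival gene, at 2.93-fold (2.41 to 3.57), and the forkhead gene Foxf1 at a log2 ratio of -1.85. The higher ones included the limb and palate factor Osr2, with 5.5 and 150.5 fragments, at 38.3-fold (16.6 to 112). They also included Hand2, with 0 and 38 fragments. With its count of 0 set to 3 fragments, Hand2 was 17.7-fold higher. The smallest difference within its counting interval was 13.7-fold. Sfrp1 had a log2 ratio of 8.07. Foxl1, a neighbour of Foxf1 on chromosome 8 named after its value was seen, had 10 and 64 fragments and a log2 ratio of 3.16 (2.19 to 4.29), opposite to Foxf1.

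**Figure D4:**
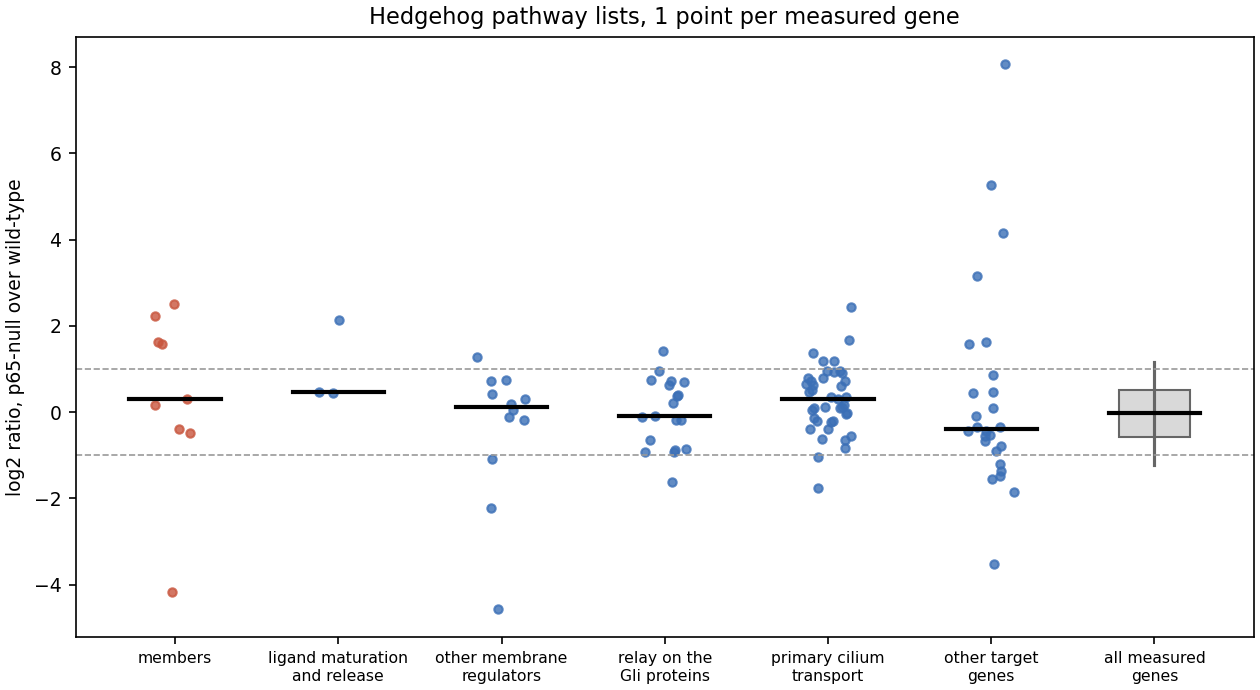
Log2 ratio of every measured gene of the 9 members and the 5 further Hedgehog lists, 1 point per gene, with the median as a bar. The box at the right spans the middle of all measured genes (25th to 75th percentile, whiskers 10th to 90th). The relay list clusters around 0 (median -0.09) and the cilium list around 0.30, which is also the median of the members. The members and the other target genes spread to both sides.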

How the data were processed

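RNA-seq of 1 wild-type and 1 null MEF culture was analysed. Per the submitters' processing notes, the tools were STAR 2.4, HOMER, edgeR and bcl2fastq 2.16 and the genome was mm10, with no roles stated. How reads were counted, strand use and annotation release are not given in the sources. The deposited table, although named as raw counts, holds a scaled signal: both columns sum to 18117934 and 18117930. Each column's values are whole multiples of 1 step (0.436 wild-type units, 0.587 null units). All 14112 and 14626 low values tested, 100%, were whole to within 0.0055 units. Even multiples made up 72.8% and 75.7% of values of 1 to 20 steps, so 1 fragment was taken as 2 steps. Odd numbers of steps therefore give counts with 0.5 of a fragment. No count test was run on 1 library per genotype.

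Transcripts were matched to symbols through a RefSeq gene table (16743) or GENCODE M21 (83), and 55 had no match. Libraries were scaled with edgeR 4.0.16 (R 4.3.3) TMM factors, 1.02 and 0.981. Length and GC content came from the longest GENCODE transcript of the matched gene and type, a choice made after the transcript matched to Gas1 was seen to cover 1155 bases of 2961. A count of 0 was set to 3 fragments, giving a bound. Fragments carry no molecular tags, so the intervals and the floor speak of counting error alone. The GC and length correction was a loess fit (span 0.3, statsmodels 0.14.6) over 11990 genes, 98.8% of those measured. Across these genes the log2 ratio had a Spearman correlation of 0.43 with GC content and of -0.23 with transcript length.

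The members, lists and motifs were chosen with earlier results of these data known. Of each list, up to 3 genes higher and 3 lower by 2-fold are named, those whose interval end nearest to 0 is farthest from it, besides Sufu, Kif7, Spop and the ligands; other genes were named after their values were seen. Some genes that this rule names are not reported here. With 2 libraries no gene can be ranked by a pattern like that of a member. Counts for null against wild-type were simulated over 12113 genes. The interval covered the simulated ratio in 94.1% (2-fold), 95.2% (4-fold) and 97.1% (8-fold) of changed genes. The simulated counts were whole and held counting error only, so coverage near 95% was built in and says nothing of the spread between cultures. Of the genes made 2-fold apart, 47.1% reached 2-fold.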

Additional observations from a re-analysis of the deposited data

How the results depend on the processing

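Each member stayed on its side of 2-fold under the 11 alternatives run (DESeq2 1.42.0, total and upper quartile scaling, scaling to 83 ribosomal protein genes, thinning, the 10 most abundant genes left out of the scaling, 3 choices on low counts, the interval end as the call, and the GC and length correction), except that Gli1 and Hhip are not measured at a minimum of 5 CPM. That minimum left 0 members at least 2-fold lower and 3 higher, because fewer genes are tested. The median of the members was -0.11 under ribosomal protein scaling and 0.50 after the GC and length correction. Ribosomal protein scaling moved all log2 ratios by -0.40 and upper quartile scaling by 0.11. Apart from the interval end, which put Gli1 at 1.18 and Ptch1 at -0.16, Gli2 ranged from 1.18 to 1.70, Gas1 from 2.11 to 2.63, Boc from 1.23 to 1.74, Gli1 from 1.82 to 2.34, Gli3 from -0.89 to -0.25, Ptch1 from -0.79 to -0.28 and Hhip from -4.79 with a prior count of 2 to -3.24 after the GC and length correction.

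Over all measured genes, 1475 were at least 2-fold higher and 1667 lower (46.9% higher among those apart), against 900 and 3010 (23.0%) under ribosomal protein scaling, 2461 and 2239 with no minimum, 924 higher at 5 CPM, 965 and 1104 by the interval end, and 1101 lower after the GC and length correction. In the lists, cilium genes 2-fold higher numbered 9 under upper quartile scaling, 2 under ribosomal protein scaling and 2 by the interval end, against 5. Cilium genes lower numbered 5 under ribosomal protein scaling, 1 under upper quartile scaling, thinning or the interval end and 0 after the correction, against 2. Relay genes lower numbered 6 under ribosomal protein scaling, against 1, and relay genes higher ranged from 0 to 2, against 1. Other targets higher numbered 11 with no minimum and 3 at 5 CPM, against 6, and the ligand list 2 higher and 1 lower with no minimum, against 1 and 0. The causes were not tested. No paired analysis was possible because each genotype has 1 library. Precision is limited for Gli1 (10 wild-type fragments) and Hhip (0 null fragments), and 1 library per genotype leaves the spread between cultures unknown.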
